A study of Mus musculus with 47 samples.

Results

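The contractile and intermediate filament genes Acta2, Tagln, Cnn1, Myl9, Tpm1, Tpm2, Tpm4, Actn1 and Vim were followed through every deposited peak list of a ChIP-seq study of NMuMG cells, a mouse mammary gland epithelial line. The group held 9 of the 21887 protein-coding genes on chromosomes 1 to 19, X and Y of the RefSeq gene table. They were chosen by name, and a peak was counted at a gene when it touched the gene's span or the 10 kb to either side of it in mm10. ChIP-seq recovers the DNA bound to a protein or carrying a histone modification, and a peak is a stretch where the recovered DNA exceeds the background by the authors' threshold.

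The cells were control cells or Pbrm1 knockout (KO) cells, left untreated (0 h) or given TGFβ1 at 5 ng/ml for 24 h or 48 h. Of the 47 samples, 32 had a peak list and 15 were inputs, which were not used here. In control cells the lists covered the chromatin remodelling proteins BRG1 (0 h) and PHF10 (0, 24 and 48 h), the transcription factors ATF3 (0, 24 and 48 h), FOSL2 and FOSB (0 and 48 h), and the histone marks H3K4me3, H3K4me1, H3K27ac, H3K14ac and H3K18ac (0 and 48 h). In KO cells they covered PHF10, FOSL2 and FOSB at 0 and 48 h and ATF3 at 0, 24 and 48 h, and no histone mark. Control PHF10 at 0 h and at 48 h had 2 libraries each, and every other group had 1. The labels do not say whether the KO line is a clone or whether libraries came from separate cultures, so a spread between them may be technical. Cells for the 14 BRG1, PHF10 and ATF3 lists were crosslinked with DSG and then formaldehyde, and cells for the other lists with formaldehyde only, so no mark or FOS factor list shares its crosslinking with those 3 proteins.

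Acta2 encodes smooth muscle alpha-actin, and transgelin (Tagln), calponin (Cnn1) and tropomyosins bind along actin filaments, while Myl9 is a regulatory light chain of non-muscle and smooth muscle myosin. Alpha-actinin (Actn1) cross-links actin filaments, and vimentin (Vim) builds the intermediate filaments of mesenchymal cells. Many of these genes are known to be induced when epithelial cells take on mesenchymal traits under TGFβ, and several carry CArG boxes, the sites bound by serum response factor. PBRM1 and PHF10 are subunits of the PBAF form of the SWI/SNF chromatin remodelling complexes, of which BRG1 is an ATPase, and ATF3, FOSL2 and FOSB are members of the bZIP family. H3K4me3 marks gene starts, H3K4me1 is usual at enhancers, and the 3 acetyl marks are found at active starts and enhancers.

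RefSeq promoter sequences of the table's build, GRCm38.p6, were at hand for 8 of the 9 genes, Tagln being the gene without one. Each ran from 250 bases before the start to 50 after it. Those of 4 genes are shown because the peak lists set them apart below: Acta2 had no H3K4me3 peak, Myl9 had weak mark peaks, and Tpm4 and Vim had strong ones. Capitals mark matches on either strand to the CArG box (exact or with up to 1 letter different), TATAAA (a form of the TATA box), TGANTCA (the AP-1 site) or TGACG (the core of the CRE site).
Acta2 (chr19:34255324-34255623, minus strand): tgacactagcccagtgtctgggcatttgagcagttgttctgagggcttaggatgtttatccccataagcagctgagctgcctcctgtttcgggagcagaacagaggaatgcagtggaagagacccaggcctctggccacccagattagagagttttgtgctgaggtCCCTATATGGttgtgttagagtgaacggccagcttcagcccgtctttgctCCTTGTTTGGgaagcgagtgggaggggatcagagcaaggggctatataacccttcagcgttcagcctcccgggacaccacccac
Myl9 (chr2:156775214-156775513, plus strand): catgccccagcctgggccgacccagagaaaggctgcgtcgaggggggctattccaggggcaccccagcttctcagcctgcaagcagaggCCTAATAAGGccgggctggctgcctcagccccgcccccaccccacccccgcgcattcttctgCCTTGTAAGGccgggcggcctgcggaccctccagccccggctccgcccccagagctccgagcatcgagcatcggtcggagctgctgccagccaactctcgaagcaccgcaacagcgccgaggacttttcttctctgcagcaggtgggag
Tpm4 (chr8:72135038-72135337, plus strand): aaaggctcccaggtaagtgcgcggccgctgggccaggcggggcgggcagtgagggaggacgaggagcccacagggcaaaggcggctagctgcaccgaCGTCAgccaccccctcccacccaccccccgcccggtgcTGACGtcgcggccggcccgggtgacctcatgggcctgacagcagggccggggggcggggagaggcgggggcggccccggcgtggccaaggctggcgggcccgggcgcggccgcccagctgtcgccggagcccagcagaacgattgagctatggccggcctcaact
Vim (chr2:13574061-13574360, plus strand): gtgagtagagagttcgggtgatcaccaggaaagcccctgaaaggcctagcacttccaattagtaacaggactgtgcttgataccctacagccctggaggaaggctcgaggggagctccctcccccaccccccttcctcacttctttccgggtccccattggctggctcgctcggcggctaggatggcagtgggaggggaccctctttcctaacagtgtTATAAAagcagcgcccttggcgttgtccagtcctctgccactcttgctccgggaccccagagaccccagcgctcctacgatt
The CArG box was matched without a difference only in Myl9, 161 bases before its start, and 1.52% of all 21263 promoters in the table held such a match. With up to 1 letter different, Acta2, Myl9 and Tpm1 held 2 matches each, against 19.7% of all promoters with at least 1. TGACG was found at Tpm4 (2 matches, 153 and 115 bases before the start), Tpm1 and Actn1 (1 each), and in 23.6% of all promoters. TATAAA was found at Vim alone among the 8, 32 bases before the start, and in 12.6% of all promoters. Other forms of the TATA box were not searched for, so the other 7 may hold one. None of the 8 held TGANTCA, which 6.99% of all promoters held. The promoters also differed in CG dinucleotides, with 6 at Acta2 and at Cnn1, 11 at Vim, 20 at Myl9 and at Tpm2, 24 at Actn1, 27 at Tpm1 and 31 at Tpm4, beside a median of 13 over all promoters. These matches describe letters in a window and no binding was read from them.

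Lists differed greatly in length, from 2 peaks (FOSB, KO, 0 h) to 158815 (PHF10, KO, 48 h), and the sequencing depth behind them is unknown here. The share of all genes with a peak moved with list length, so counts of the 9 genes are read against that share. At 0 h all 8 epithelial marker genes examined (such as Cdh1 and Epcam) had both an H3K4me3 and an H3K27ac peak within 2 kb of their start, beside 63.0% and 57.6% of all genes. At 48 h all 8 had H3K4me3 and 5 had H3K27ac (48.8% of all genes). None of 4 leukocyte markers had either mark at 0 h, 2 of 3 endothelial markers (Cdh5 and Kdr) had both, and of 3 neuronal markers 2 had H3K4me3 and 1 had H3K27ac. Of 5 smooth muscle markers outside the group, 3 had H3K4me3 and 2 had H3K27ac at 0 h.

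Peaks at the 9 genes were most numerous at Actn1, the longest gene, and fewest at Acta2. The lists come from bulk chromatin, so fewer cells with a site bound and less binding per cell cannot be told apart. Acta2 had a peak in 5 of the 32 lists, and none of these was a list of H3K4me3, H3K27ac, H3K14ac or H3K4me1. The other 8 genes all had H3K4me3 peaks at both times, while FOSB lists, with 2 to 188 peaks each, held none of the 9 genes. The 0 h lists of ATF3 and FOSL2, with 5 to 25 peaks each, and the KO ATF3 list at 24 h, with 69, held none of them either.

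**Figure D1:**
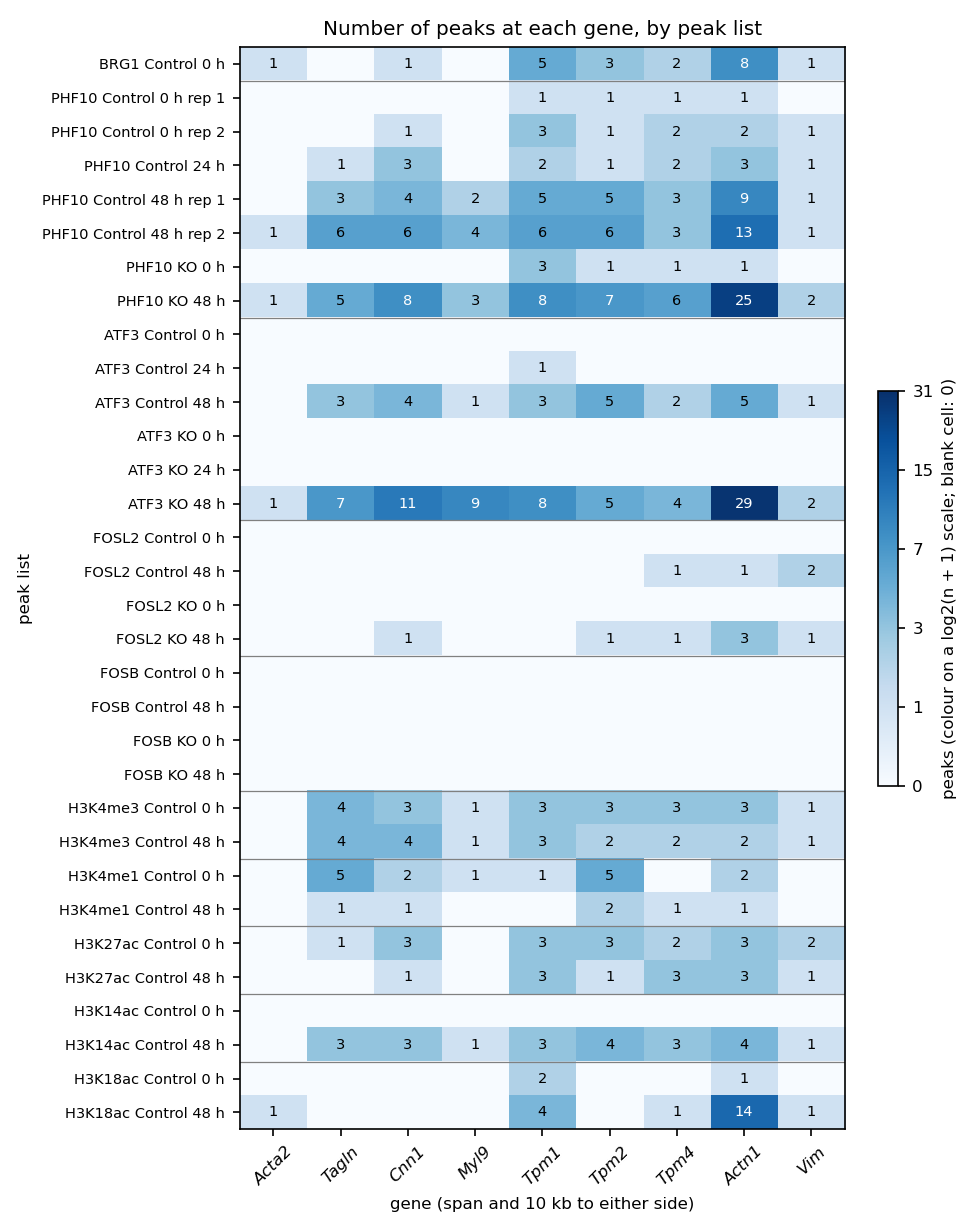
Number of peaks at each of the 9 genes (columns; span and 10 kb to either side) in each of the 32 peak lists (rows, by target, genotype and time); colour follows log2(n + 1) and blank cells are 0. Actn1 has up to 29 peaks in a list, Acta2 has at most 1, and the row blocks of FOSB and of ATF3 at 0 h are empty.

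In most lists the share of the 9 genes with a peak was near that of all genes or somewhat above it. For H3K4me3 it was 8 of the 9 at 0 h and at 48 h, with 73.5% and 73.2% of all genes. For control ATF3 at 48 h it was 8 of 9, with 76.4% of all genes, and for FOSL2 at 48 h it was 3 of 9 in control and 5 of 9 in KO cells, with 9.22% and 17.2% of all genes. At H3K14ac 0 h it was 0 of 9, with 18% of all genes. No test was made of these shares, since 9 genes chosen by name are not a sample of all genes.

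**Figure D2:**
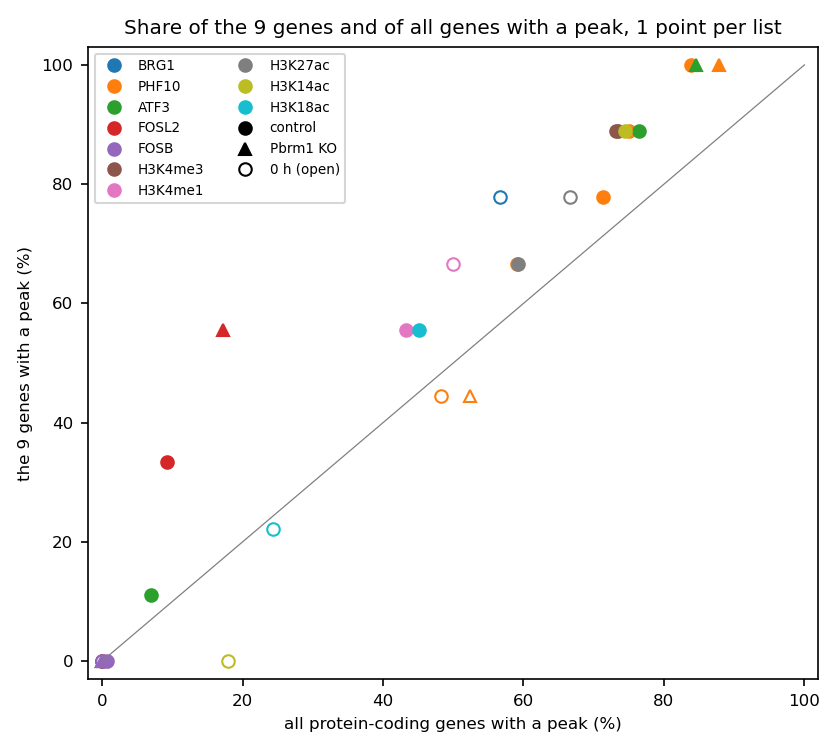
Percent of the 9 genes with a peak (vertical) against percent of all 21887 protein-coding genes with a peak (horizontal), 1 point per list; colours are targets, circles control, triangles KO, open symbols 0 h, and the line marks equal percentages. Most points lie near or somewhat above the line, and the 2 FOSL2 lists at 48 h lie farthest above it.

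Acta2 (gene 11475, chr19:34240336-34255585, minus strand) was the gene with the least signal. Its BRG1 peak at 0 h lay 0.82 kb into the gene with a deposited fold enrichment over background of 2.49, a value above only 7.4% of the peaks of that list. An H3K18ac peak at 48 h overlapped the same stretch (0.68 kb into the gene, fold 4.39, above 33.2% of its list), and Acta2 had no H3K18ac peak at 0 h. Control PHF10 gave 1 peak, in replicate 2 at 48 h, 2.87 kb into the gene with a fold of 3.04, and none in replicate 1, at 24 h or at 0 h. The KO lists at 48 h placed a peak on the start itself, for PHF10 at 0.08 kb before it (fold 3.42) and for ATF3 at 0.12 kb before it (fold 2.84). Control ATF3 at 48 h had no peak in the Acta2 window. Stambpl1 lies 2 bases from the far end of Acta2, and no peak of the window lay at it.

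Tagln (gene 21345, chr9:45929628-45936058) had its marks on a narrow stretch at the upper end of the gene; distances are from that end because no start was at hand. H3K4me3 had a fold of 7.09 at 0 h and 8.10 at 48 h there, above 36.8% and 49.5% of their lists. H3K14ac was listed there only at 48 h (fold 11.3), and H3K27ac at neither time. H3K4me1 was listed there at 0 h and 48 h (4.14 and 7.49), above 82% and 44.1% of its lists. The only H3K27ac peak of the Tagln window, at 0 h (fold 5.65), lay 8.14 kb outside that end, within the neighbouring gene Sidt2. PHF10 at the upper end was in neither 0 h library and in all 3 later control libraries, with a fold of 3.43 at 24 h and 3.49 in each 48 h replicate. Control ATF3 at 48 h had a fold of 6.47 there. In the KO cells at 48 h PHF10 was again listed there (2.82), and no KO ATF3 peak touched it, the nearest lying 2.37 kb outside.

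Calponin, Cnn1 (gene 12797, chr9:22099221-22109221, plus strand), carried its marks 0.9 kb inside the gene rather than on the start. H3K4me3 at 0.87 kb had a fold of 14.3 at 0 h and 7.51 at 48 h, and H3K27ac there was listed only at 0 h (0.89 kb, fold 4.41). Another small site 3.1 kb before the start had BRG1 at 0 h (3.33), H3K4me3 at both times (8.81 and 6.38) and ATF3 at 48 h (5.45). The strongest peaks of the Cnn1 window (H3K4me3 72.8 and 53.1) lay 17.7 kb from its start at Elof1, a neighbour, and the only PHF10 peak at 0 h, in replicate 2, was there. PHF10 over the Cnn1 start was found from 24 h on, with folds of 3.68 at 24 h and 2.81 and 3.22 in the 48 h replicates.

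Myl9 (gene 98932, chr2:156775408-156781657, plus strand) has no neighbour in its window, and each mark list that reached it had 1 peak, on the start. The fold was 9.31 and 6.91 for H3K4me3 at 0 h and 48 h, 6.22 for H3K14ac at 48 h and 3.92 for H3K4me1 at 0 h. No H3K27ac, H3K18ac, BRG1 or FOSL2 peak lay in its window at any time. PHF10 was absent from the window in both 0 h libraries and at 24 h, and lay over the start in both 48 h libraries (2.81 and 2.50). In KO cells at 48 h it was also there (3.06), and the KO ATF3 list held 9 peaks in the window, against 1 in the control list. The KO ATF3 list was also the longer, with 144513 peaks against 45716.

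**Figure D3:**
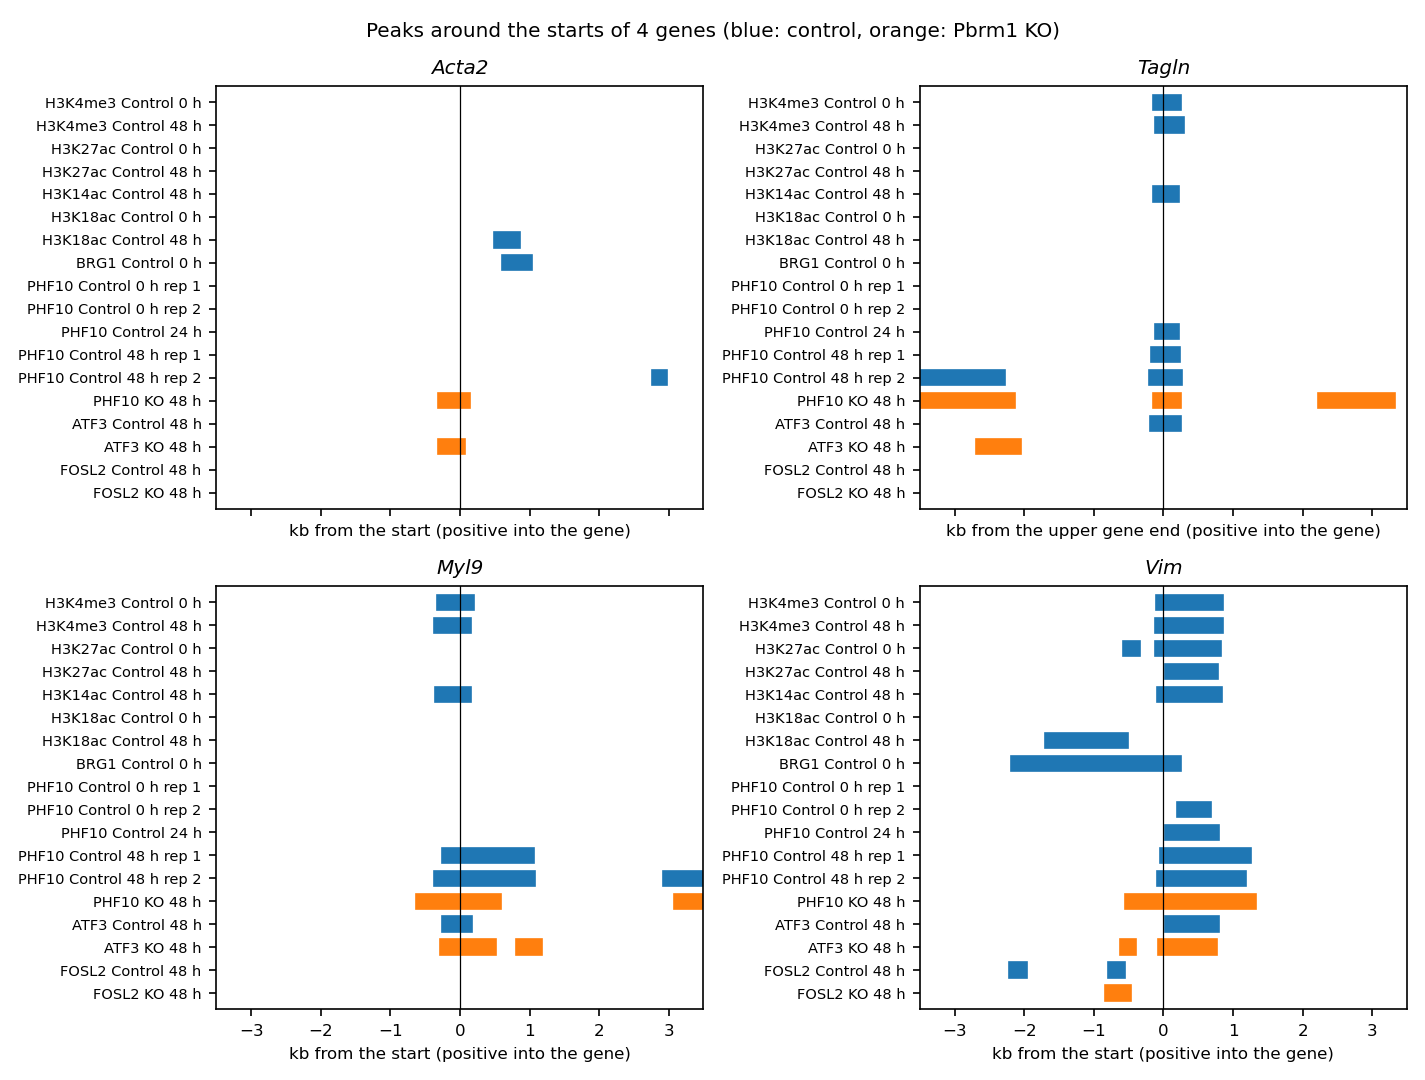
Peaks within 3.5 kb of the starts of Acta2, Myl9 and Vim and of the upper end of Tagln (horizontal axis in kb, positive into the gene), 1 row per list, blue for control and orange for Pbrm1 KO. Acta2 has its only mark peak, H3K18ac at 48 h, 0.68 kb inside the gene and KO peaks of PHF10 and ATF3 on the start, whereas Myl9 and Tagln have narrow mark peaks and Vim broad ones, with FOSL2 at 0.68 kb before the Vim start.

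The tropomyosin genes differed among themselves. Tpm1 (gene 22003, chr9:67022590-67049672, minus strand) had 3 strong sites, on the start and 1.2 kb and 5.5 kb inside the gene. At 1.16 kb H3K4me3 had a fold of 88.5 at 0 h, above 97.5% of its list, and at the 5.5 kb site H3K27ac had a fold of 113. At 48 h the former site had H3K4me3 at 32.0 and the latter H3K27ac at 78.8. The 5.5 kb site was the only Tpm1 site in PHF10 replicate 1 at 0 h (4.54) and had the stronger PHF10 peak at 24 h (6.60, above 97.4% of that list). Tpm1 was also the only gene of the 9 with an ATF3 peak at 24 h, 13.0 kb into the gene with a fold of 3.49, and no control ATF3 peak lay there at 48 h.

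Tpm2 (gene 22004, chr4:43513726-43523583, minus strand) had a broad but low H3K4me3 peak of 1960 bases on its start at 0 h, with a fold of 6.89 and 6.44 at 48 h. H3K27ac at the start had a fold of 24.6 over 1887 bases at 0 h and of 7.81 over 505 bases at 48 h. H3K4me1 there had folds up to 4.37 at 0 h and 14.6 at 48 h, above 88% and 76.4% of their lists. PHF10 lay within 1 kb of the Tpm2 start in all 7 PHF10 lists, with folds from 2.82 to 4.53. BRG1 had a peak 0.92 kb into the gene (3.31).

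Tpm4 (gene 326618, chr8:72135288-72153142, plus strand) had 1 strong site on its start, with H3K4me3 at 48.3 and 35.7, H3K27ac at 83.8 and 73.1, H3K14ac at 39.2 and H3K18ac at 14.2, the last 2 at 48 h only. PHF10 was on the start in all 7 PHF10 lists, with 7.73 and 4.17 in the 0 h replicates, 5.49 at 24 h and 3.48 and 2.82 in the 48 h replicates. These folds are each relative to their own list, and a fold that differs between lists is no measure of change. Peaks 25.9 kb from the start lay at Rab8a, a neighbour.

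Actn1 (gene 109711, chr12:80167542-80260420, minus strand) spans 92879 bases and had a strong site on its start, with H3K4me3 at 65.1 and 43.0 and H3K27ac at 87.6 and 83.5. Inside the gene, from 20 to 50 kb past the start, H3K18ac had 1 peak at 0 h (fold 6.15) and 12 peaks at 48 h (2.65 to 5.52, from 26.3 to 43.3 kb). In the same stretch BRG1 had 6 peaks at 0 h (2.60 to 3.95), H3K27ac had 1 at 0 h and 2 at 48 h, and H3K4me3 had none at either time. Control ATF3 at 48 h had none there, while the KO lists had 6 for ATF3 and 8 for PHF10. PHF10 in control cells had none there at 0 h or 24 h, and 3 and 1 in the 48 h replicates. The KO lists of 48 h were longer, with 144513 ATF3 peaks against 45716. For PHF10 they had 158815 against 43549 and 102434 in the control replicates. At 48 h H3K18ac had 4 peaks at Tpm1 and 1 each at Acta2, Tpm4 and Vim.

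**Figure D4:**
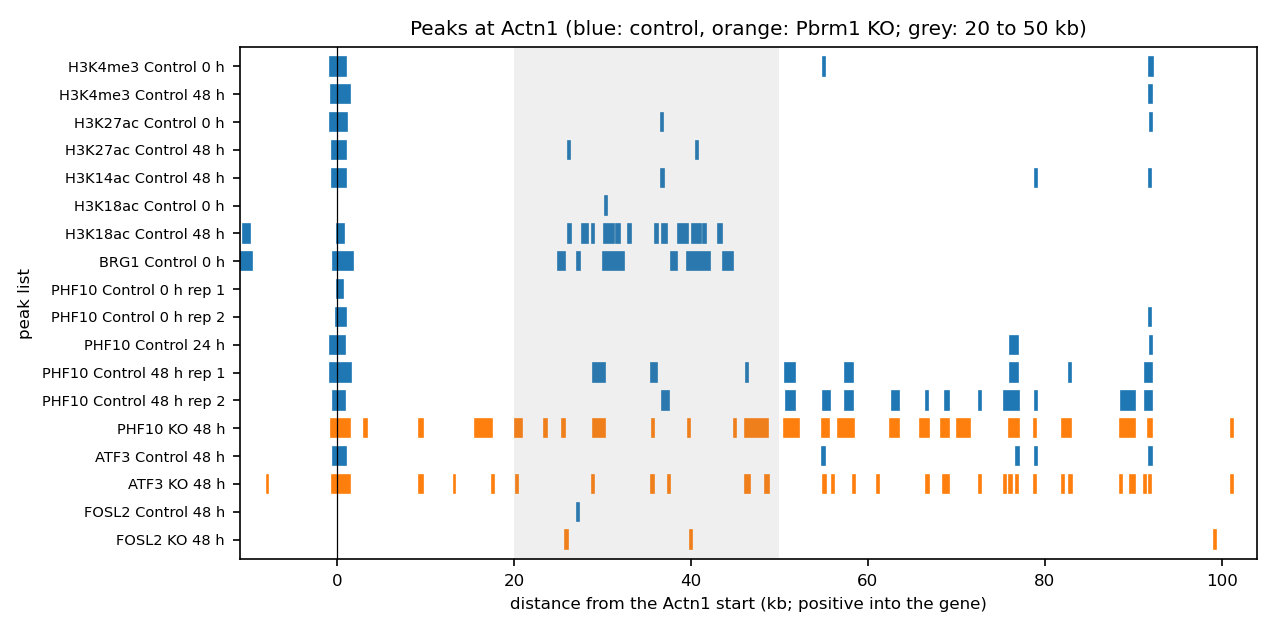
Peaks at Actn1 by distance from its start (horizontal axis in kb, positive into the gene), 1 row per list, blue for control and orange for Pbrm1 KO; bars are drawn to the peaks' lengths and grey marks 20 to 50 kb. The grey stretch holds 12 H3K18ac peaks at 48 h, 6 BRG1 peaks at 0 h and no H3K4me3 peak.

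Vim (gene 22352, chr2:13574311-13582826, plus strand) had its strong marks from the start inward, with H3K4me3 at 57.4 and 34.7, H3K27ac at 52.0 and 22.0 and, at 48 h, H3K14ac at 30.1. BRG1 at 0 h had a peak of 2455 bases that lay mostly before the start and ran across it (3.25). The stretch before the start also held an H3K18ac peak at 48 h (5.36, 1.11 kb before the start) and a weak H3K27ac peak at 0 h (3.56, 0.46 kb before it). FOSL2 lay in this stretch at 48 h, 0.68 kb before the start in control cells (7.81, above 71.6% of the list) and 0.65 kb before it in KO cells (10.7, above 82.7%). A further control FOSL2 peak lay 2.09 kb before it (4.95). PHF10 was absent from Vim in replicate 1 at 0 h and present in replicate 2 (3.17) and in all 3 later control libraries.

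Across the 9 genes the H3K4me3 peaks at the starts were strong at Tpm1, Tpm4, Actn1 and Vim, weaker at Tagln, Cnn1, Myl9 and Tpm2, and absent at Acta2. At 0 h the strongest H3K4me3 fold at the start was 48.3 to 88.5 at the former 4 genes and 6.89 to 14.3 at the latter 4, and the ranges did not overlap at 48 h either (32.0 to 43.0 and 6.44 to 8.10). This grouping was made after the values were seen and has no test. H3K4me1 did not follow the same order, and where listed at the start its folds were higher at genes of the weaker group than at those of the stronger. At 48 h H3K4me1 within 1 kb of the start had a fold of 14.6 at Tpm2, 7.49 at Tagln, 7.12 at Cnn1 and 4.08 at Tpm4. These were above 76.4%, 44.1%, 41.5% and 10.9% of that list. No H3K4me1 peak lay there at 48 h at Myl9, of the weaker genes, or at Tpm1, Actn1, Vim or Acta2. At 0 h H3K4me1 lay at the start or upper end of Tagln (4.14), Cnn1 (4.29), Myl9 (3.92) and Tpm2 (4.37), and of Tpm1 (3.03) among the stronger genes. None lay at the starts of Tpm4, Actn1, Vim or Acta2 at 0 h. H3K18ac at 48 h lay within 1 kb of the start at Acta2 as well as at Tpm1, Tpm4, Actn1 and Vim.

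**Figure D5:**
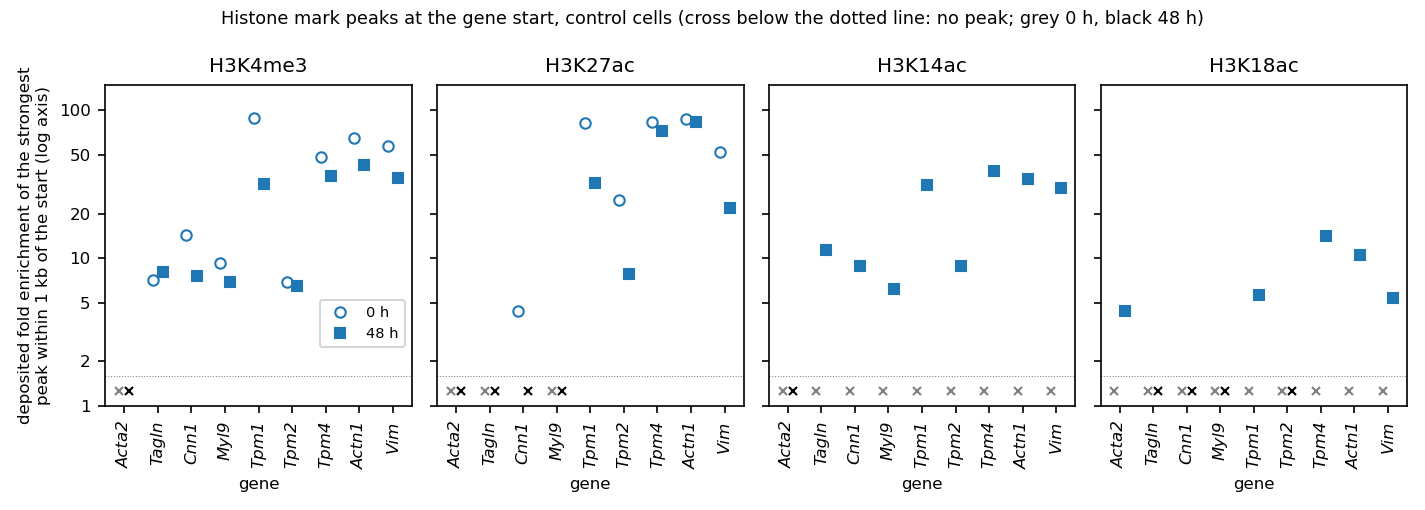
Deposited fold enrichment (log axis) of the strongest peak within 1 kb of each gene's start (for Tagln, of either gene end) in control cells, open circles 0 h and filled squares 48 h; crosses below the dotted line mean no peak. H3K4me3 is 48.3 or more at 0 h at Tpm1, Tpm4, Actn1 and Vim, and H3K14ac and H3K18ac have points at the starts only at 48 h.

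The first comparison was of TGFβ1-treated with untreated control cells for PHF10, the only target with replicates. The 9 windows held 4 and 10 PHF10 peaks in the 0 h replicates and 32 and 46 in the 48 h replicates, so the groups did not overlap. On the log2(peaks + 1) scale untreated libraries averaged 2.89 ± 0.80 (SD, n = 2) and treated ones 5.30 ± 0.36 (SD, n = 2), a difference of 2.41, with a two-sided exact permutation p = 0.33, the smallest that 2 against 2 allows. The lists themselves had 11285 and 14731 peaks at 0 h and 43549 and 102434 at 48 h, a mean difference of 2.37 on the log2 scale. Per 10000 peaks of the list the windows held 3.54 and 6.79 peaks at 0 h and 7.35 and 4.49 at 48 h, which overlap (log2 difference 0.23, exact permutation p = 0.67). With the lists shortened to equal length, the log2(peaks + 1) difference was 0. The larger number of PHF10 peaks at the 9 genes therefore went with longer lists, and a change in PHF10 at these genes and a change in list length cannot be told apart.

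By gene, Tpm1, Tpm2, Tpm4 and Actn1 had PHF10 in both 0 h libraries (4 of 9, with 45.5% of all genes), and all but Acta2 had it in both 48 h libraries (8 of 9, with 74.3%). Tagln and Myl9 had it in both 48 h libraries and in neither 0 h library (2 of 9, with 14.5% of all genes), and no gene of the 9 showed the reverse (0.0228% of all genes). At 24 h Tagln alone had PHF10 with none in either 0 h library (1 of 9, with 10.8% of all genes), and none of the 9 the reverse (0.0503%). The tropomyosin and actinin genes were listed from 0 h on, Tagln from 24 h and Myl9 at 48 h. The lists lengthened in the same order, from 11285 and 14731 peaks at 0 h through 28011 at 24 h (1 library) to 43549 and 102434 at 48 h. An order of the genes in time and the length of the lists therefore cannot be told apart. Cnn1 and Vim had a peak in 1 of the 2 libraries at 0 h, that of Cnn1 lying at its neighbour Elof1. Without replicate 1 of 0 h, the count of genes with PHF10 was 6 of 9 at 0 h (59.1% of all genes), in place of 4, beside 7 at 24 h (71.3%) and 8 at 48 h (74.3%). With each list shortened to the length of the shortest, keeping its peaks of highest −log10 q, the counts were 3 at 0 h and 1 at 48 h. The sign of the difference changed, but no share of all genes is given at that length, so no reversal at these genes is read from it.

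Among the marks, H3K14ac went from no peak at any of the 9 genes at 0 h to peaks at 8 of them at 48 h, Acta2 being the exception, and 56.4% of all genes showed the same (0.0959% the reverse). The 0 h list had 3453 peaks and the 48 h list 35270. H3K18ac had a peak at 48 h and none at 0 h at Acta2, Tpm4 and Vim (3 of 9, with 24.6% of all genes), and no gene of the 9 showed the reverse (3.87%). The 9 windows held 3 of 13226 H3K18ac peaks at 0 h and 21 of 20415 at 48 h, or 2.27 (95% exact binomial interval 0.468 to 6.63) and 10.3 (6.37 to 15.7) per 10000, where the intervals cover counting error only and neighbouring peaks of 1 gene are not independent. Actn1 held 14 of the 21 peaks at 48 h and 1 of the 3 at 0 h.

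H3K4me3 reached the same 8 genes at both times, and no gene of the 9 had it at 48 h only (1.01% of all genes) or at 0 h only (1.32%). H3K27ac had a peak at 0 h and none at 48 h in the Tagln window alone (1 of 9, with 8.48% of all genes), which was the Sidt2 peak above, and in no window at 48 h only (1.04%). H3K4me1 was listed at 0 h only at Myl9 and Tpm1 (2 of 9, with 12.1% of all genes) and at 48 h only at Tpm4 (1 of 9, with 5.51%). Each mark had 1 library a time, so none of these differences has a replicate check.

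ATF3, a stress-induced factor, had peaks in control cells at 1 of the 9 genes at 24 h and at 8 at 48 h, with 7.00% and 76.4% of all genes. At 7 of 9 there was a peak at 48 h and none at 24 h (69.8% of all genes, with 0.384% the reverse). The lists had 2004 and 45716 peaks. ATF3 at 48 h lay within 1 kb of the start or upper end of each of the 8 genes, and its strongest fold there ran from 5.95 at Cnn1 to 11.4 at Actn1. With lists of equal length the counts were 1 gene at 24 h and 0 at 48 h. The sign of the difference changed, but no share of all genes is given at that length, so no reversal at these genes is read from it. Of the 24 ATF3 peaks in the windows, 18 overlapped an H3K4me3 peak of 48 h, or 75.0%, beside 62.2% of all ATF3 peaks of that list. None overlapped a FOSL2 peak, and 0.232% of the whole list did.

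BRG1 at 0 h had peaks at Acta2, Cnn1, Tpm1, Tpm2, Tpm4, Actn1 and Vim, and not at Tagln or Myl9. Only Acta2 had BRG1 and no PHF10 in either 0 h library (1 of 9, with 10.1% of all genes). No gene of the 9 had PHF10 in both libraries without BRG1 (8.71%). These counts are by window and do not place the 2 proteins at the same site. At Cnn1 the only PHF10 peak at 0 h, in replicate 2, lay 17.7 kb from the start at Elof1. Its BRG1 peak lay 3.11 kb before the start. PHF10 was at 4 of the 9 genes in both libraries (45.5% of all genes), and at 6 without replicate 1 (59.1%), against 7 for BRG1 (56.7%). Of the 21 BRG1 peaks in the windows, 4 overlapped a PHF10 peak of replicate 1 at 0 h, beside 15.9% of all BRG1 peaks. For replicate 2 at 0 h it was also 4 of 21, beside 19.8%. Of the same 21 peaks, 6 overlapped H3K4me3 at 0 h (28.6%, beside 24.4% of all BRG1 peaks). With H3K18ac at 48 h, 9 overlapped (42.9%, beside 25.4% of all BRG1 peaks). Read from the H3K18ac side, 12 of 21 peaks at 48 h overlapped a BRG1 peak of 0 h (57.1%, beside 40.9% of that list) and 4 of 21 an H3K4me3 peak (beside 33.9% of that list). Of the 22 H3K14ac peaks at 48 h, 17 overlapped H3K4me3 (77.3%, beside 75.8%).

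The second comparison was of Pbrm1 KO with control cells. For PHF10 at 0 h the KO library had peaks at Tpm1, Tpm2, Tpm4 and Actn1, the same 4 genes as both control libraries (52.4% and 45.5% of all genes), and no gene of the 9 was in KO only (1.06% of all genes) or control only (1.30%). Without replicate 1 of the control, 6 genes had PHF10 in control and 4 in KO cells, since Cnn1 and Vim were listed in replicate 2. The Cnn1 peak of that replicate lay at its neighbour Elof1. At 48 h the KO list reached all 9 genes (87.9% of all genes), against 8 in both control libraries (74.3%). With lists of equal length the counts were 5 in KO and 6 in control cells, and no share of all genes is given at that length. Without replicate 1 of the control, all 9 genes had it in both genotypes. None of the 9 had PHF10 in KO and in neither control library (4.25% of all genes), or in both control libraries and not in KO (0.0959%), since Acta2 had a peak in 1 of the 2 control libraries. All 25 PHF10 sites found in both control 48 h libraries at these genes overlapped a KO peak, beside 96.9% of all such sites, and 19 of the 25 overlapped control ATF3 at 48 h (76.0%, beside 66.8%).

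For ATF3 at 24 h Tpm1 had a peak in control cells and not in KO cells (1 of 9, with 7.00% of all genes), and none of the 9 the reverse (0.105%). At 48 h Acta2 had ATF3 in KO cells only (1 of 9, with 9.91% of all genes), and none in control only (1.70%). The 9 windows held 24 ATF3 peaks in the control list and 76 in the KO list, and the lists had 45716 and 144513 peaks, or 5.25 and 5.26 per 10000. Among peaks with a fold of at least 5, ATF3 was at 8 of the 9 genes in control and 2 in KO cells. That cut kept unlike parts of the lists, since a fold of 5.31 was above 27.1% of the control list and 5.57 above 96.4% of the KO list. The 8 and 2 are thus no measure of a difference in binding. With lists of equal length ATF3 was at 8 genes in each. No share of all genes is given at these settings. Of the 24 control peaks 20 overlapped a KO peak (83.3%, beside 66.7% of the list), the upper end of Tagln being among those that did not. Of the 76 KO peaks 17 overlapped an H3K4me3 peak of control cells (22.4%, beside 16.8%).

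FOSL2 at 48 h had peaks at Tpm4, Actn1 and Vim in both genotypes and at Cnn1 and Tpm2 in KO cells only (2 of 9, with 8.64% of all genes), and at none in control only (0.603%). The Vim site 0.68 kb before the start and the Tpm4 site 23.0 kb past its start were found in both genotypes. The Tpm4 site had a fold of 8.85 in control and 16.0 in KO cells, above 82.8% and 97.2% of their lists, and overlapped no peak of any other target. At Actn1 the control peak lay 27.3 kb into the gene (6.77) and overlapped BRG1, while the KO peaks lay at 25.9, 40.0 and 99.2 kb (7.30, 5.61 and 6.17), of which that at 40.0 kb also overlapped BRG1, so the gene was shared and the sites were not. The KO-only peaks lay 9.06 kb before Cnn1 (8.49) and 1.13 kb into Tpm2 (5.93). With 1 library for each genotype, a list of 3444 control peaks and a list of 7381 KO peaks, the difference has no replicate check. With lists of equal length FOSL2 was at 3 genes in each, and no share of all genes is given at that length.

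Over all 32 lists, the presence of peaks was most alike for Tpm4 and Actn1, which shared 19 lists and differed in 2 (Jaccard index, the lists with both over the lists with either, 0.905). Acta2 was least like the others, with an index from 0.211 with Tpm2 to 0.312 with Vim. Tagln and Myl9 differed in 3 lists (0.750). The 17 lists in which at least 5 of the 9 genes had a peak were taken as the common pattern. Each gene thus helped to define the pattern it was set against. Cnn1 came nearest to it (0.941), before Tpm2 (0.842), and Myl9 (0.529) and Acta2 (0.294) were farthest. In control PHF10 replicate 2 at 0 h and control H3K27ac at 48 h, the only peak of the Cnn1 window lay at Elof1. The place of Cnn1 therefore rests in part on peaks at a neighbour.

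Of 32 other genes of the contractile and filament pathway, those nearest to that pattern were Lmod1 (leiomodin, an actin filament nucleator) and Tln1 (talin, which links integrins to actin), each 0.895, and Tagln2 (a transgelin) at 0.889. Part of Tln1 lies inside the Tpm2 window, so the windows share peaks. All 32 had H3K4me3 at both times (73.5% and 73.2% of all genes). PHF10 was at 24 of them in both 0 h libraries (45.5% of all genes) and at all 32 in both 48 h libraries (74.3%), with Myh11, the smooth muscle myosin heavy chain, the only one with none in either 0 h library. H3K14ac was at 10 at 0 h and at 32 at 48 h (18% and 74.4% of all genes), and Zyx (zyxin), Myh9 and Cnn3 had the highest 48 h folds among those without it at 0 h (56.2, 46.4 and 44.5). H3K18ac was at 21 and 25 (24.3% and 45.1%), with Tln1 (21.3), Lmod1 (8.82) and Synm (8.80) leading those at 48 h only and Myocd, the coactivator myocardin, at 0 h only (5.11).

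ATF3 in control cells was at 4 of the 32 pathway genes at 24 h and at all 32 at 48 h (7.00% and 76.4% of all genes). Flna (filamin A, 14.5), Pdlim7 (13.1) and Srf, the factor that binds CArG boxes (12.1), had the highest folds among those not listed at 24 h. At 24 h Palld (6.09), Mrtfa (4.24) and Mylk (3.58) were among the 4 in control only, and Lmna (3.52) was in KO only. FOSL2 was at 9 in control and 18 in KO cells (9.22% and 17.2% of all genes), of which 9 were in KO only (8.64%), and Lmod1 (11.2), Palld (8.14) and Vcl (vinculin, 7.30) had the highest folds in KO only. H3K27ac was at 31 and 29 (66.6% and 59.2% of all genes), with Myh10 (6.45) and Myocd (2.13) at 0 h only. H3K4me1 was at 25 and 23 (50% and 43.3%), with Mrtfb (3.38) at 48 h only and Mrtfa (4.71), Zyx (3.19) and Myocd (3.09) at 0 h only.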

How the data were processed

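The peak lists were used as deposited, in mm10 per the labels; per the submitters' processing notes MACS3 3.0.0a7, Bowtie2 2.3.3, deepTools 3.5.1, fastp 0.19.5 and Partek 11.0.24.0325 were used, with roles and settings not given in the sources used here. Each deposited list gives a pileup signal, a −log10 p and −log10 q, and a fold enrichment (a ratio to background) per peak, as the authors' caller computed them. The fold describes peaks within their own list only, and the pileup was not used. Starts were read as counted from 0, since length equals end minus start, and 1 was added. The lowest −log10 q was about 1 in 8 lists and 1.3 or more in the other 24, so the lists were not cut at the same threshold.

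Genes, names and promoters came from RefSeq tables of GRCm38.p6, the patch release of mm10, in which 17492 of 21887 genes had a start site. A gene counted as having a peak when at least 1 base of a peak fell in its span or the 10 kb to either side, and in a group of 2 libraries when both had one. A gene was listed in 1 arm only when every library of that arm and none of the other had a peak. Sites of 2 lists were shared when they overlapped by at least 1 base. PHF10 at 48 h and 0 h was compared with a two-sided exact permutation test of log2(peaks + 1), and 15 comparisons were made in all. All 9 genes are named; other pathway genes are named when listed in 1 arm only, at most 3 a direction by fold, or when among the 3 nearest to the common pattern. The 9 genes and all lists were chosen with earlier results of these data known. Alternatives changed the thresholds on q and fold, the window, the overlap, the list lengths and the replicates. Python 3.11.15, numpy 2.4.6, pandas 2.3.3, scipy 1.17.1 and matplotlib 3.10.9 were used, and the overlap code was tested on simulated data. Read depth was not given with the lists, so intervals cover the counting of peaks only. Inputs were not used.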

Additional observations from a re-analysis of the deposited data

Results flagged for a closer look

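The number of the 9 genes with an ATF3 peak differed between Pbrm1 KO and control cells in opposite directions at the 2 times of TGFβ1 treatment. At 24 h the difference, KO minus control, was -1 gene (Tpm1, in control cells only, with 7.00% of all genes). At 48 h it was 1 gene (Acta2, in KO cells only, with 9.91% of all genes). The longer list was that of control cells at 24 h (2004 against 69 peaks) and of KO cells at 48 h (144513 against 45716). With lists of equal length the difference was 0 at both times. Each group had 1 library, and the difference between the times was not tested.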

How the results depend on the processing

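Differences are in numbers of the 9 genes with a peak, and the cause of each change was not tested. For lists of equal length and for cuts by fold or q, no share of all genes is given beside them. A given fold also stood at unlike ranks in different lists. Of the alternative values, 81 were counted as the same, 27 as moved and 6 as reversed. With lists of equal length, PHF10 at 48 h against 0 h went from 4 to -2 genes, PHF10 at 24 h from 3 to 1, PHF10 in KO against control from 0 to 1 at 0 h and from 1 to -1 at 48 h, ATF3 at 48 h against 24 h from 7 to -1, ATF3 in KO against control from -1 to 0 at 24 h and from 1 to 0 at 48 h, FOSL2 from 2 to 0 and H3K14ac from 8 to 2, and the log2 difference in PHF10 peaks from 2.41 to 0. With a fold of at least 5, PHF10 at 48 h against 0 h became 0 (its log2 difference in peaks went from 2.41 to -0.79), PHF10 in KO against control 3 at 0 h and 0 at 48 h, BRG1 against PHF10 0 in place of 3, ATF3 in KO against control 0 at 24 h and -6 at 48 h, and H3K4me1 3 in place of -1. With a −log10 q of at least 5, the values were 1 for PHF10 at 48 h, 3 and 4 for PHF10 in KO against control at 0 h and 48 h, 1 for BRG1 against PHF10, and 0 for ATF3 in KO against control at both times. Within 2 kb of the start, PHF10 in KO against control at 0 h was 1, ATF3 in KO against control at 24 h was 0, FOSL2 was 1 and H3K18ac was 5 in place of 3. In the gene span only, FOSL2 was 1.

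Leaving out each PHF10 replicate gave 2 to 5 genes for 48 h against 0 h (log2 difference 1.84 to 2.98), 1 to 3 for 24 h, -2 to 0 for KO against control at 0 h, 0 to 1 at 48 h, and 1 to 3 for BRG1 against PHF10. The replicate block gave the same log2 difference of 2.41, with an exact permutation p of 0.50 by sign flips. Peak presence in replicates with the same number did not deviate together (r = -0.049 over 21887 genes, which are not independent). With 2 libraries a time and lists of unlike length, this cannot tell whether such replicates shared a culture or batch. Peaks per 10000 of the list and the BRG1 values without a replicate were chosen after seeing the data.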
